A study of Caenorhabditis elegans with 13 samples.

Results

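The genes described here are the 254 C. elegans genes with a numbered nhr symbol (nuclear hormone receptor) that the platform annotation of the Affymetrix C. elegans array gives to a probe set of their own, out of 17118 genes measured in this way. Each gene was read from 1 probe set that names no other gene, the one with the highest mean over all 13 arrays. The members were covered by 293 such probe sets, and 33 genes had more than 1. The RefSeq gene table holds 283 genes of this name, and the other 29, which no single-gene probe set represents under this rule, are in none of the counts below. The rule left out nhr-62 because the annotation of its probe set repeats the symbol. By the limma test described below, that probe set fell at 0 hr (log2 fold change -2.51 ± 0.47 (SE), adjusted p = 0.00715). At 24 hr it was not called (-0.54 ± 0.20, adjusted p = 0.124). Of the 254 genes, 243 are annotated as protein coding and 11 as pseudogenes.

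Sorted muscle cells were compared with all viable embryonic cells at 2 times. M0 (3 arrays) was RNA from cells positive for a myo-3::GFP transgene, in which the promoter of the body wall muscle myosin gene myo-3 drives the reporter, sorted straight after embryos were dissociated. R0 (3 arrays) was the matching reference, namely every living cell sorted from wild-type embryos treated the same way. M24 (3 arrays) was RNA from myo-3::GFP positive cells sorted after 24 hr in culture, and R24 (4 arrays) was RNA from all living wild-type cells cultured for the same 24 hr. Muscle and reference therefore differ in the transgene as well as in cell type, all embryonic cells include muscle, and per the labels the sorted muscle fraction still held other cells. The labels give each array as a separate biological replicate.

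Nuclear hormone receptors are transcription factors with a zinc-finger DNA-binding domain and a domain that can bind small lipophilic ligands such as steroids, fatty acids or bile acids, through which they switch sets of target genes on or off. Vertebrate and fly families are modest in size. Nematodes have a greatly enlarged one, and most of its members are thought to descend from an ancestor like HNF4, the vertebrate receptor of liver and gut metabolism. A smaller set of worm receptors has a direct counterpart in insects and vertebrates and acts in molting, neuron identity, vulva formation and dauer entry.

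The arrays were alike in overall brightness, with median intensities of 49.2 to 58.0. The mean R² of replicate pairs was 0.923 in M0, 0.937 in R0, 0.871 in M24 and 0.957 in R24, and M24 replicate 3 stood apart from the other M24 arrays. All 5 body wall muscle markers rose in muscle at both times. Of these, myo-3, the gene whose promoter marks the cells, rose by a log2 fold change of 2.80 ± 0.45 (SE) at 0 hr and 1.79 ± 0.30 at 24 hr, and hlh-1, the worm MyoD, by 2.61 ± 0.25 and 2.38 ± 0.21. The call of myo-3 at 24 hr was lost without M24 replicate 1 (adjusted p = 0.0557) and with scan day as a random block (0.0574). Most markers of neurons and epidermis fell in muscle. Of 8 neuron markers, 7 fell at 0 hr and 6 at 24 hr, and their summed intensity was 2784 to 3601 in M0 and 8174 to 9053 in R0, then 2479 to 3366 in M24 and 5042 to 8803 in R24. Of 9 epidermis markers, 7 fell at each time, with sums of 2468 to 3886 in M0 and 10593 to 11977 in R0, then 1637 to 2267 in M24 and 8760 to 12086 in R24. Of 6 pharynx markers, 4 fell at 0 hr and 0 at 24 hr. Their sums were 465 to 624 in M0 and 1328 to 1729 in R0, then 608 to 990 in M24 and 860 to 1288 in R24. Of 7 intestine markers, 0 fell at 0 hr (median log2 fold change -0.04) and 1 at 24 hr (-0.36), with sums of 401 to 585 in M0 and 447 to 791 in R0, then 529 to 786 in M24 and 901 to 2016 in R24. Of 6 germline markers, 1 fell at each time (medians 0.05 and -0.03), with sums of 367 to 451 in M0 and 420 to 569.8 in R0, then 868 to 1502 in M24 and 1191 to 1494 in R24. No marker of these 5 lists rose. No marker was at 0, since these intensities have no zero, and how far cells other than muscle took part in any nhr value below was not tested.

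Few nhr genes were called between sorted muscle and all embryonic cells, and most of those that were had lower values in muscle. At 0 hr 3 nhr genes rose in M0 against R0 and 17 fell, and at 24 hr 1 rose in M24 against R24 and 12 fell. A gene is said here to have risen or fallen (to be called) when limma's moderated test, with Benjamini-Hochberg adjustment across the 22548 probe sets of the array, gave an adjusted p under 0.05 together with a change of 1.7-fold or more (0.77 on the log2 scale). The 3 raised at 0 hr were 1.18% of the family, against 3.95% of all genes, and the 17 lowered were 6.69%, against 8.27% of all genes. At 24 hr the 1 raised gene was 0.394% of the family, against 2.43% of all genes, and the 12 lowered were 4.72%, against 6.0%. In either direction 20 members (7.87%) were called at 0 hr, against 12.2% of all genes, and 13 (5.12%) at 24 hr, against 8.43%. These shares are given as a description, with no test of the family as a whole. The counts moved with single arrays. Leaving out 1 array at a time gave 1 to 7 rises and 11 to 15 falls at 0 hr, with 1 rise without R0 replicate 3 or M0 replicate 3, 7 rises without M0 replicate 2 and 11 falls without R0 replicate 1. The same at 24 hr gave 0 to 5 rises and 3 to 15 falls, with 0 rises without R24 replicate 2, 3 or 4, 5 without M24 replicate 2 and 4 without M24 replicate 3, and with 3 falls without M24 replicate 1 and 6 without R24 replicate 2.

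**Figure D1:**
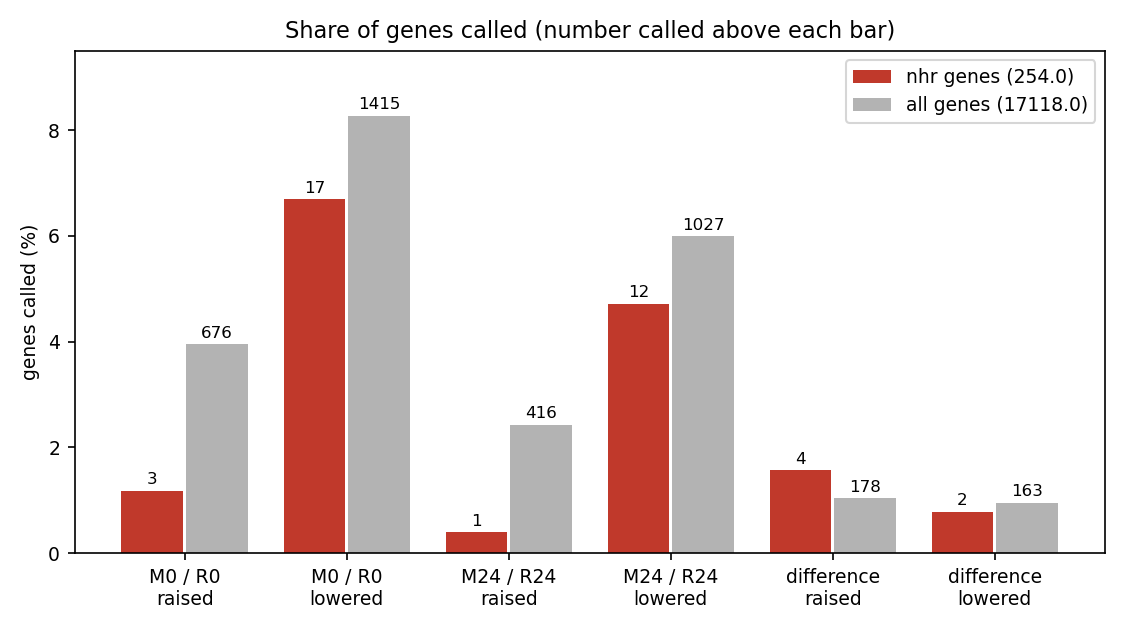
Percentage of genes called raised or lowered (vertical axis) among the 254 nhr genes (red) and all 17118 genes (grey) in each comparison, with the number called above each bar. In both comparisons of muscle with reference the share of nhr genes raised is below that of all genes (1.18% against 3.95% at 0 hr, 0.394% against 2.43% at 24 hr).

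The median nhr gene differed little between muscle and all cells. The median log2 fold change was 0.06 at 0 hr and 0.09 at 24 hr, where the medians over all genes were 0.10 and 0.10. The family's interquartile range ran from -0.14 to 0.27 at 0 hr and from -0.16 to 0.32 at 24 hr. The extremes were -2.98 (nhr-213) and 1.49 (nhr-69) at 0 hr, and -3.09 (nhr-43) and 0.88 (nhr-238, not called) at 24 hr. Without adjustment 48 nhr genes had p under 0.05 at 0 hr (18.9%, against 25.2% of all genes) and 75 at 24 hr (29.5%, against 30.2%). Muscle and reference arrays did not overlap for 32 members higher in M0 (12.6%, against 17.3% of all genes) and 37 lower in M0 (14.6%, against 15.2%). At 24 hr they did not overlap for 52 members higher in M24 (20.5%, against 16.8% of all genes) and 23 lower in M24 (9.06%, against 12.4%). Many members gave dim signals. At 0 hr 94 of the 254 nhr genes (37%) had a mean at or above the median probe set, against 51.4% of all genes, and 11 of the 20 called members lay below it. No detection calls were used, so a dim value here is not a statement that a gene is silent.

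Across the 254 genes the log2 fold changes of the 2 times had a Pearson r of 0.42 and a Spearman rho of 0.40, against 0.65 and 0.56 over all genes. The 2 times use different arrays. These are descriptions across genes, which are not independent replicates. Of the 17 genes lowered at 0 hr, 14 were below 0 and 3 above 0 at 24 hr. The matching share among all genes lowered at 0 hr was not counted, so this is not read as a trait of nhr genes.

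**Figure D2:**
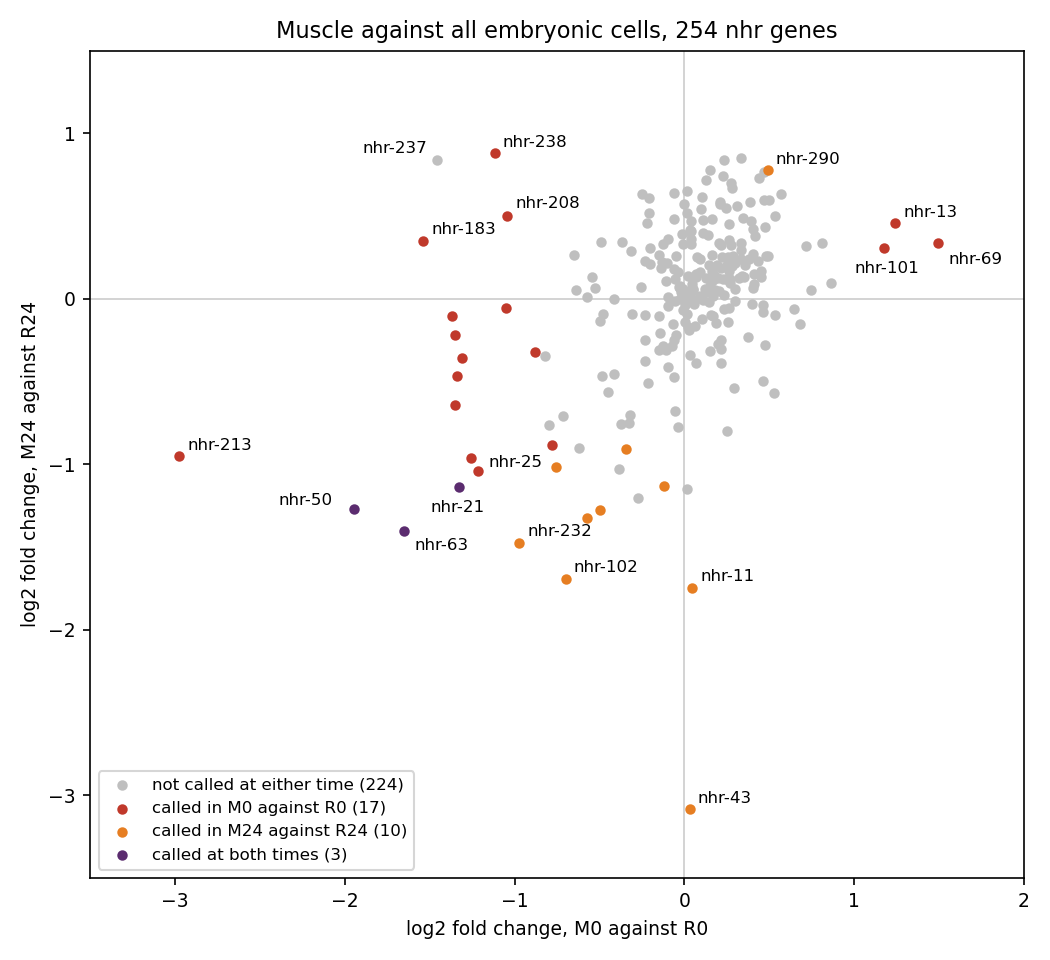
Log2 fold change of each of the 254 nhr genes in M0 against R0 (horizontal axis) and in M24 against R24 (vertical axis), 1 point a gene, coloured by the comparison in which it was called. Most points lie near 0 on both axes, nhr-69, nhr-13 and nhr-101 lie to the right, nhr-43 lies at -3.09 on the vertical axis only, and nhr-50, nhr-63 and nhr-21 are the 3 genes called at both times.

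Among receptors listed for muscle or fat metabolism or as relatives of HNF4, nhr-69 and nhr-13 rose in fresh muscle. nhr-69 was listed as a relative of HNF4. Its log2 intensities were 6.59, 6.05 and 6.39 in M0, against 4.79, 4.86 and 4.91 in R0, so that the lowest muscle array lay more than 1 log2 unit above the highest reference array. The log2 fold change was 1.49 ± 0.19 (SE, adjusted p = 0.00105), a 2.82-fold rise, and it was 1.81 and 1.14 within the 2 scan days that held an array of both groups. At 24 hr nhr-69 measured 5.10, 5.33 and 4.92 in M24, against 4.77, 4.62, 4.65 and 5.08 in R24. These groups overlap, and the log2 fold change of 0.34 ± 0.16 was not called (adjusted p = 0.202). The enrichment of nhr-69 in muscle was thus smaller at 24 hr than at 0 hr by 1.16 ± 0.24 on the log2 scale (adjusted p of the difference 0.0305). The call at 0 hr was kept under all alternatives that could be run for it (its probe set was too dim for the brightness filter). Leaving out 1 array at a time, the call of the difference was kept only without M0 replicate 2, R24 replicate 1, R24 replicate 3, M24 replicate 2 or M24 replicate 3, and the adjusted p was 0.0545 to 0.0756 without any other. The difference was also not called with the replicate number as a block (-1.06, adjusted p = 0.101) or with each array centred on its median (0.0658).

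nhr-13, which acts with the fat regulator nhr-49 in lipid metabolism, gave 7.92, 6.99 and 7.83 in M0, against 6.71, 5.87 and 6.43 in R0. All 3 muscle arrays were above the reference arrays, with a log2 fold change of 1.24 ± 0.30 (adjusted p = 0.0254), and 1.20 and 0.56 within the 2 scan days. This call was lost without M0 replicate 1 (adjusted p = 0.0823), M0 replicate 3 (0.0899), R0 replicate 2 (0.0686) or R0 replicate 3 (0.0669), and when each array was centred on its median (0.0649). At 24 hr nhr-13 gave 7.48, 7.66 and 6.42 in M24, against 6.91, 6.86, 6.24 and 6.91 in R24. The groups overlapped there (log2 fold change 0.46 ± 0.33, adjusted p = 0.371).

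The other receptors of this list were not called at either time. nhr-49 itself, a regulator of fatty acid desaturation and beta-oxidation, had log2 fold changes of -0.45 (95% CI -0.85 to -0.05) at 0 hr and -0.57 (-1.16 to 0.03) at 24 hr. The second probe set of nhr-49 gave -0.03 ± 0.23 and -1.01 ± 0.39, both uncalled. nhr-80, a partner of nhr-49 in control of desaturase genes, had 0.25 and -0.80. nhr-66, a partner in sphingolipid metabolism, had -0.28 and -1.20 with a 95% CI at 24 hr of -2.37 to -0.03. R24 replicate 3 measured 6.91 for nhr-66, where the other R24 arrays gave 8.48 to 8.57. The second probe set of nhr-66 gave 0.39 ± 0.19 at 0 hr, of opposite sign, and -0.34 ± 0.15 at 24 hr. nhr-64, another HNF4 relative, had -0.22 and 0.46. nhr-40, which is needed for normal muscle and embryonic development, gave 9.38, 9.07 and 9.39 in M0, against 8.92, 8.91 and 8.85 in R0. These groups did not overlap, but the fold change of 0.39 ± 0.17 was not called (adjusted p = 0.204). At 24 hr nhr-40 had a log2 fold change of 0.58 ± 0.32 with overlapping groups. The second probe set of nhr-40 gave 0.15 ± 0.25 at 0 hr and 0.46 ± 0.42 at 24 hr, with overlap at both times. In all, limma called 2 of the 7 receptors of muscle and fat metabolism, both higher in muscle at 0 hr, and 0 at 24 hr, where 1 (nhr-66) had an unadjusted p under 0.05. Over all genes 3.95% rose at 0 hr and 8.43% were called at 24 hr. The list was drawn up with earlier results of these data known, so these shares do not measure an enrichment of such receptors.

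Of 11 receptors with counterparts outside nematodes, 1 fell at 0 hr, near the 8.27% of all genes, and limma called 0 at 24 hr, against 8.43% of all genes. At 24 hr 5 had an unadjusted p under 0.05 (nhr-6, nhr-23, nhr-25, nhr-85 and nhr-91), against 30.2% of all genes. The gene that fell was nhr-25, the worm FTZ-F1, which acts in epidermal fate, molting and embryonic development. It gave 6.9, 6.8 and 7.0 in M0, against 8.1, 8.2 and 8.0 in R0. Every muscle array was thus more than 1 log2 unit below every reference array, and the log2 fold change was -1.22 ± 0.16 (adjusted p = 0.00145), with -1.25 and -1.18 within the 2 scan days. At 24 hr nhr-25 gave 8.12, 7.32 and 8.54 in M24, against 8.96, 9.44, 8.59 and 9.17 in R24. All M24 arrays were below all R24 arrays, but the log2 fold change of -1.04 ± 0.32 was not called (adjusted p = 0.0826). A second probe set of nhr-25 showed no such difference, with log2 fold changes of -0.04 ± 0.30 at 0 hr and -0.10 ± 0.12 at 24 hr, and with the mean of both probe sets the call at 0 hr was lost (adjusted p = 0.0667).

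The remaining conserved receptors stayed below the fold minimum at 0 hr. nhr-6, of the NR4A type and needed in spermatheca development, had -0.38 at 0 hr and -1.03 (95% CI -1.97 to -0.09) at 24 hr. Its second probe set gave -0.06 ± 0.16 and -0.44 ± 0.31. nhr-23, the counterpart of ROR and Drosophila DHR3 and a driver of molting, had -0.21 and -0.51. Its second probe set had the opposite sign at both times (0.44 ± 0.22 and 0.16 ± 0.12). nhr-91, of the GCNF type, had -0.32 at 0 hr and at 24 hr -0.70 ± 0.14, with an adjusted p of 0.0268 but under 1.7-fold. Its log2 intensities were 5.57, 5.35 and 5.56 in M24, against 6.32, 6.14, 5.93 and 6.39 in R24, with no overlap.

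Positive but uncalled values were found for nhr-85, a Rev-erb relative (0.21 at 0 hr and 0.57 at 24 hr), nhr-41, of the TR2 and TR4 type (0.14 and 0.38), and nhr-111 (0.31 and 0.56). nhr-67, the worm tailless, with roles in neurons and the somatic gonad, had -0.09 at 0 hr and 0.36 at 24 hr. The relatives of the steroid receptor DAF-12 were also uncalled. nhr-8, a receptor in xenobiotic defence and cholesterol balance, had -0.02 and 0.07, and nhr-48 had 0.53 and -0.10. For nhr-239 the values were 0.14 and 0.04. A p above the threshold with 3 or 4 arrays a group does not show that these genes are equal in muscle and in all cells.

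**Figure D3:**
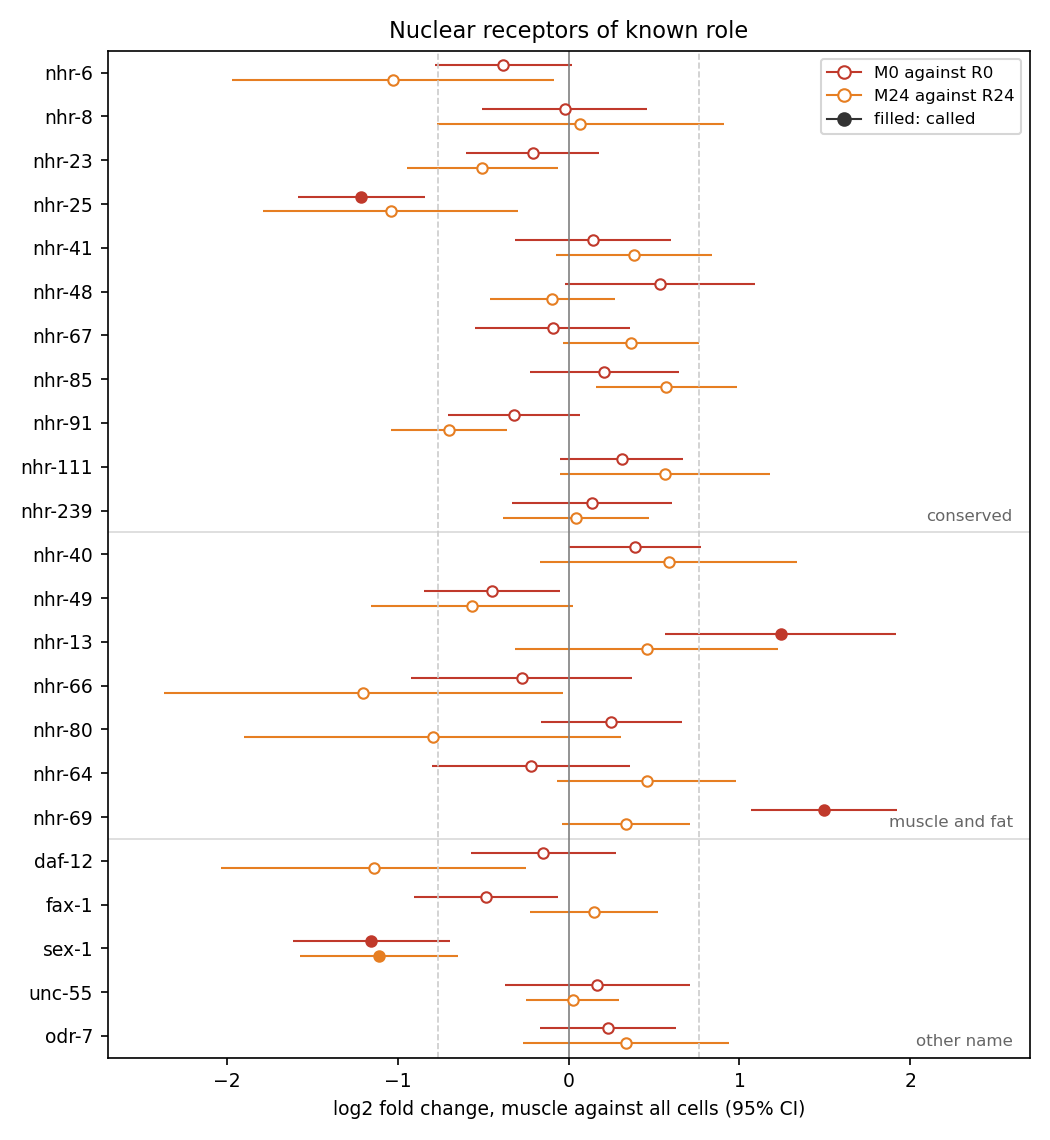
Log2 fold change, muscle against all cells, with its 95% CI (horizontal axis) for 11 conserved receptors, 7 receptors of muscle and fat metabolism and 5 nuclear receptors with another name, in M0 against R0 (red) and M24 against R24 (orange), with filled points for called genes and dashed lines at the 1.7-fold minimum. Filled points are nhr-25, nhr-13, nhr-69 and sex-1 at 0 hr and sex-1 at 24 hr.

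Of 5 nuclear receptors outside the nhr naming, 1 fell at each time and 0 rose, where 8.27% of all genes fell at 0 hr and 6.0% at 24 hr. The gene was sex-1. sex-1, a Rev-erb relative that counts X chromosomes in sex determination, gave 7.35, 7.97 and 7.66 in M0, against 8.97, 8.70 and 8.78 in R0. The M24 arrays gave 7.99, 7.46 and 7.65, against 8.58, 9.22, 8.69 and 8.75 in R24. It fell at both times, by 1.16 ± 0.20 (adjusted p = 0.00554) and by 1.11 ± 0.20 (adjusted p = 0.0168) on the log2 scale, with no overlap at either time. The second call was lost with quantile normalization of all arrays or with a block for replicate or scan day (adjusted p up to 0.105). sex-1 and daf-12 were each read from 1 of 3 probe sets, and the others are not given here. With the mean of its 3 probe sets, both calls of sex-1 were kept. daf-12, the steroid receptor of dauer entry, was near 0 at 0 hr (-0.15 ± 0.19). At 24 hr it had -1.14 ± 0.38 with overlapping groups (adjusted p = 0.101). fax-1 (the PNR type, in neuron identity) had -0.48 and 0.15, unc-55 (COUP-TF, in motor neurons) 0.17 and 0.02, and odr-7 (in olfactory neurons) 0.23 and 0.34, with 0 calls among the 3.

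Of 10 genes for ligand synthesis and cofactors, 1 fell at 0 hr (8.27% of all genes did) and 2 fell at 24 hr (6.0% of all genes did), and 0 rose. dhs-16, a hydroxysteroid dehydrogenase in the making of dafachronic acids, the ligands of DAF-12, gave 5.22, 5.19 and 5.47 in M0, against 7.16, 5.74 and 6.98 in R0. At 24 hr its values were 5.51, 4.96 and 5.15 in M24, against 7.02, 7.55, 6.62 and 7.46 in R24. Its log2 fold change was -1.33 ± 0.34 at 0 hr (adjusted p = 0.0320), a call kept, when 1 array was left out, only without R0 replicate 2 (adjusted p up to 0.121 without the others) and lost with centring (0.0580), and -1.95 ± 0.26 at 24 hr (adjusted p = 0.00609). strm-1, a sterol methyltransferase that lowers the supply of dafachronic acid precursors, had -0.60 at 0 hr and fell at 24 hr by 1.38 ± 0.23 (adjusted p = 0.0134). That call was lost without R24 replicate 2 or M24 replicate 1 (adjusted p up to 0.0539), with the replicate number as a block (0.0761) and with scan day as a random block (0.0870). The Mediator subunit gene mdt-15, a coactivator of nhr-49, had -0.40 and -0.17 and was not called.

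Of 8 measured fat metabolism genes under control of such receptors, 1 was called at 0 hr, close to the 12.2% of all genes. icl-1, the glyoxylate cycle enzyme that lets embryos turn fat into sugar, gave 11.23, 11.46 and 12.13 in M0, against 10.24, 9.58 and 9.74 in R0. It rose by 1.75 ± 0.27 (adjusted p = 0.00294). icl-1 was read from 1 of 3 probe sets, and this call was kept with their mean. At 24 hr it gave 9.71, 8.63 and 9.92 in M24, against 9.64, 9.57, 9.86 and 9.64 in R24, with a log2 fold change of -0.25 ± 0.30 and overlapping groups. The difference of enrichment was -2.01 ± 0.44 (adjusted p = 0.0357), kept only without R0 replicate 1, M0 replicate 1, R24 replicate 1 or M24 replicate 2 or 3 when 1 array was left out (adjusted p up to 0.0993 without the others). It was also lost with quantile normalization (0.146), the replicate number as a block (0.0822) and scan day as a random block (0.0578). The delta-9 desaturase gene fat-7 had a log2 fold change of 0.72 at 0 hr, with an adjusted p of 0.0192 but under 1.7-fold.

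The remaining called members belong to the large nematode-specific part of the family, and for most of them no role is stated here. At 0 hr the third gene that rose was nhr-101, with 5.67, 4.41 and 4.63 in M0, against 3.56, 3.82 and 3.79 in R0. Its log2 fold change was 1.18 ± 0.31 (adjusted p = 0.0345), with 2.10 and 0.63 within the 2 scan days, and M0 replicate 1 lay far above the other muscle arrays. The call was lost without M0 replicate 3 (adjusted p = 0.0519) and without any of the R0 arrays (up to 0.103), and also with quantile normalization or centring of the arrays (up to 0.0943).

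The largest fall at 0 hr was that of nhr-213. It gave 4.88, 5.20 and 5.52 in M0, against 8.51, 8.18 and 7.85 in R0, so that muscle lay more than 2 log2 units below the reference on every array. The log2 fold change was -2.98 ± 0.24 (adjusted p = 0.000192), a 7.87-fold lower level in M0, with -3.63 and -2.65 within the 2 scan days. At 24 hr it gave 6.28, 7.30 and 6.58 in M24, against 8.21, 7.95, 7.15 and 7.37 in R24. These groups overlapped, with a log2 fold change of -0.95 ± 0.33 (adjusted p = 0.114). In RNA from mixed cells, fewer cells that use a gene and less RNA of it in each cell cannot be told apart.

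**Figure D4:**
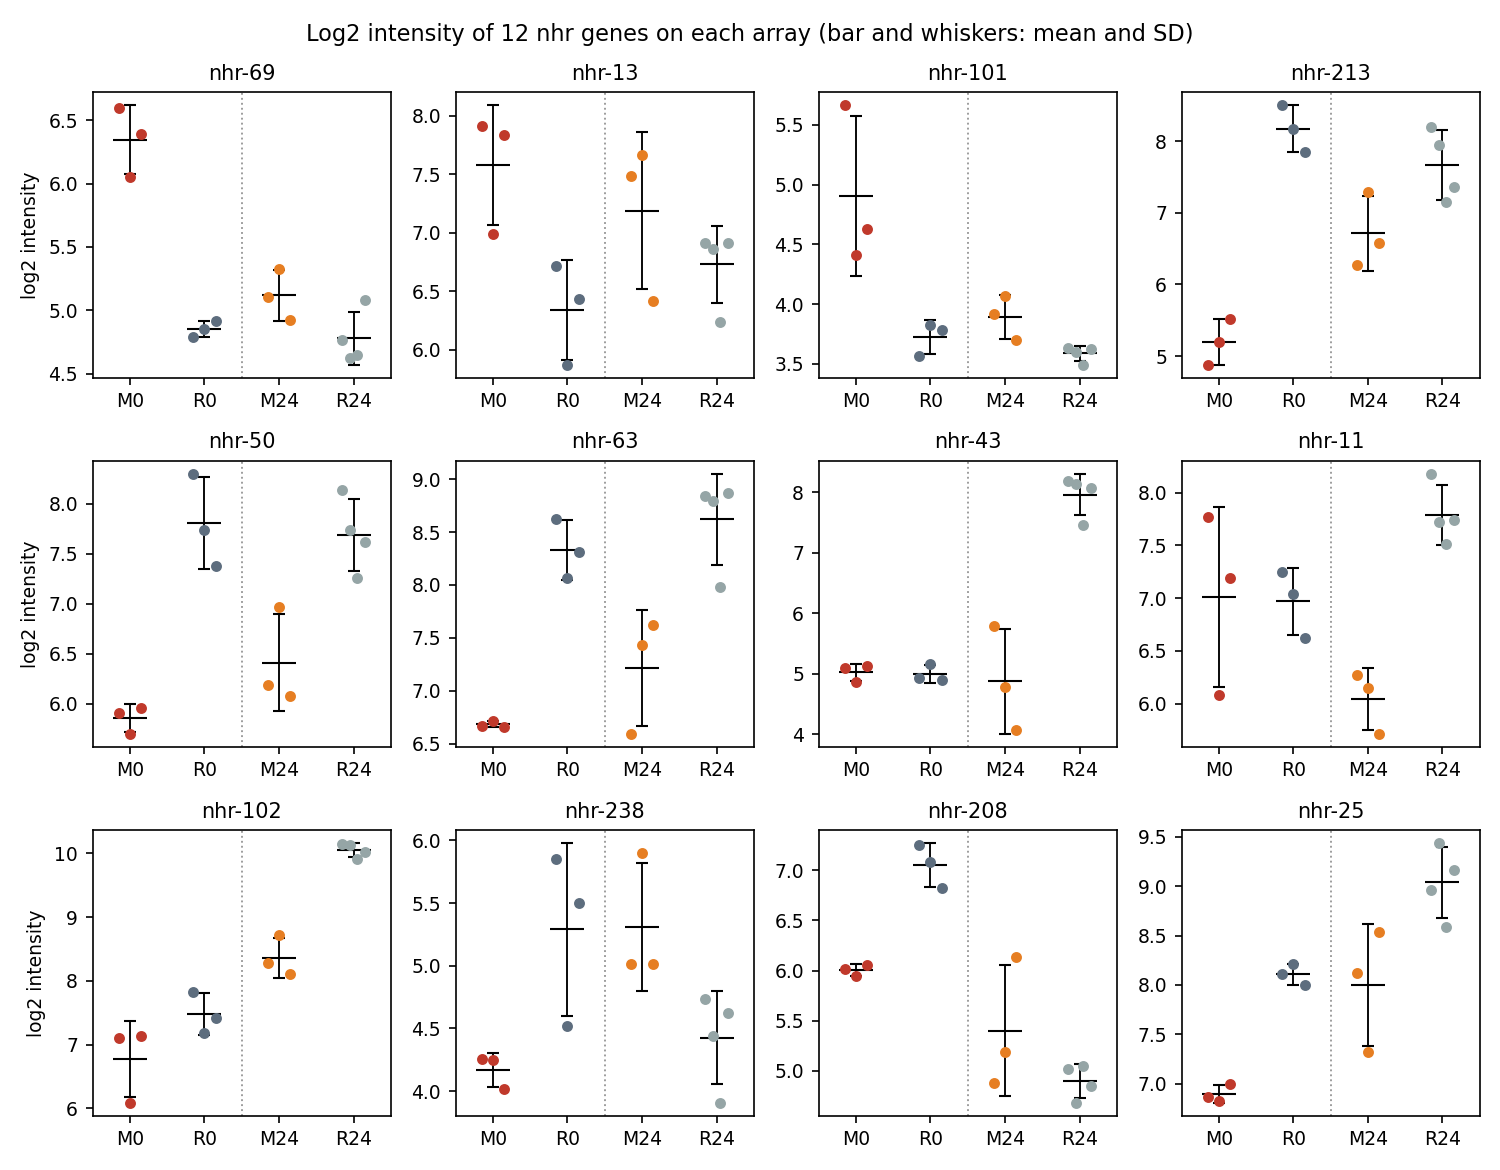
Log2 intensity (vertical axis, scaled to each gene) of 12 nhr genes on each of the 13 arrays, by group, with the group mean and SD. The dotted line separates the 2 times, which were taken as normalized separately, so that levels are compared only left of it (M0 with R0) or right of it (M24 with R24). The M0 points of nhr-69 lie above all R0 points, and the M24 points of nhr-43 lie below all R24 points.

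nhr-50 and nhr-63, which lie next to each other on chromosome V, fell at both times. nhr-50 gave 5.91, 5.70 and 5.96 in M0, against 8.30, 7.74 and 7.38 in R0 (log2 fold change -1.95 ± 0.24, adjusted p = 0.000961). In M24 it gave 6.18, 6.97 and 6.08, against 8.13, 7.73, 7.26 and 7.62 in R24 (-1.27 ± 0.28, adjusted p = 0.0333). No array of muscle reached the reference at either time, and the second probe set of nhr-50 fell alike (-1.80 ± 0.24 at 0 hr and -1.31 ± 0.32 at 24 hr). nhr-63 gave 6.67, 6.71 and 6.66 in M0, against 8.63, 8.06 and 8.31 in R0 (-1.65 ± 0.19, adjusted p = 0.000659). In M24 it gave 6.59, 7.43 and 7.62, against 8.84, 8.79, 7.98 and 8.87 in R24 (-1.40 ± 0.32, adjusted p = 0.0366). The calls of this pair at 0 hr were kept under all alternatives tried, whereas those at 24 hr were lost without R24 replicate 1, 2 or 4 or M24 replicate 1 (adjusted p up to 0.128 for nhr-50 and 0.112 for nhr-63), that of nhr-50 also without M24 replicate 3 (0.0546) and that of nhr-63 without M24 replicate 2 (0.0535) or with quantile normalization (0.0675).

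nhr-21 was the third gene called at both times, with 4.36, 5.32 and 5.46 in M0, against 6.56, 6.19 and 6.37 in R0. After culture it gave 4.62, 4.78 and 4.79 in M24, against 6.05, 5.55, 5.49 and 6.39 in R24. It fell by 1.33 ± 0.29 (adjusted p = 0.0154) and by 1.14 ± 0.23 (adjusted p = 0.0261) on the log2 scale, with no overlap. Without R0 replicate 1 or 3 the first call was lost (adjusted p up to 0.0538), and without R24 replicate 1 or 2 or M24 replicate 1 or 2 the second (up to 0.104). Genes lowered at both times were 1.18% of the family (3 genes), against 3.27% of all genes, and limma called 0 nhr genes raised at both times, against 1.29% of all genes. With an unadjusted limma p under 0.05 at both times 5 nhr genes were higher in muscle. The matching share of all genes was not counted, so that number is not judged here.

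Several further genes fell at 0 hr and were not called at 24 hr. nhr-183 gave 6.83, 5.87 and 7.22 in M0, against 8.52, 8.14 and 7.87 in R0 (-1.54 ± 0.33, adjusted p = 0.0152), and lost its call without R0 replicate 1 (0.0547). At 24 hr its groups overlapped (0.35 ± 0.38). nhr-55 gave 5.67, 5.19 and 5.32 in M0, against 6.98, 6.93 and 6.37 in R0 (-1.37 ± 0.22, adjusted p = 0.00377), and was close to equal at 24 hr (-0.11 ± 0.13).

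nhr-2, a receptor needed in early embryos, gave 4.93, 4.70 and 4.71 in M0, against 6.34, 5.74 and 6.32 in R0 (-1.35 ± 0.21, adjusted p = 0.00284). At 24 hr it had -0.64 ± 0.12 with an adjusted p of 0.0177, under 1.7-fold, and again no overlap. Its 3 other probe sets did not show this, with log2 fold changes at 0 hr of 0.14 ± 0.18, 0.24 ± 0.18 and -0.18 ± 0.20, and with the mean of all 4 the call was lost (adjusted p = 0.306). nhr-45 likewise fell in its brighter probe set (-1.26 ± 0.29, adjusted p = 0.0196) and measured -0.09 ± 0.17 in its other one. That call was lost without R0 replicate 1, R0 replicate 3 or M0 replicate 3 (adjusted p up to 0.0629), in a fit of all 13 arrays (0.0564), and with the mean of both probe sets, which was under 1.7-fold. nhr-65 fell by 1.05 ± 0.30 on the log2 scale (adjusted p = 0.0499) and measured 0.10 ± 0.17 in its other probe set, and its call was kept only without M0 replicate 3 when 1 array was left out (adjusted p up to 0.181 without the others) and lost with centring (0.0607) or the mean of both probe sets (0.153). The 17 falls at 0 hr included 2 smaller ones, nhr-203 (-0.88) and nhr-137 (-0.78), both outside the naming rule and named after their values were seen.

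At 24 hr the largest fall was that of nhr-43 on chromosome IV. It gave 5.78, 4.77 and 4.06 in M24, against 8.18, 8.13, 7.45 and 8.07 in R24. Every muscle array was more than 1 log2 unit below every reference array, and the log2 fold change was -3.09 ± 0.40 (adjusted p = 0.00578), an 8.49-fold lower level in M24. At 0 hr nhr-43 gave 5.09, 4.86 and 5.12 in M0, against 4.93, 5.16 and 4.89 in R0, with no visible difference (0.03 ± 0.17, 95% CI -0.36 to 0.42). The difference of enrichment was -3.12 ± 0.46 (adjusted p = 0.00582), and both this call and that at 24 hr were kept under all alternatives tried.

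nhr-11 and nhr-102 followed. nhr-11 gave 6.27, 6.14 and 5.71 in M24, against 8.18, 7.72, 7.51 and 7.74 in R24 (-1.75 ± 0.20, adjusted p = 0.00409), and its second probe set fell as well (-1.24 ± 0.30). At 0 hr its groups overlapped (0.04 ± 0.38). nhr-102 gave 8.28, 8.71 and 8.10 in M24, against 10.14, 10.14, 9.92 and 10.03 in R24 (-1.69 ± 0.16, adjusted p = 0.00266). Both calls were kept under all alternatives tried. At 0 hr nhr-102 had -0.70 ± 0.30 (adjusted p = 0.196).

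The remaining falls at 24 hr were smaller. They were those of nhr-232 (-1.47), nhr-112 (-1.32), nhr-84 (-1.28), nhr-88 (-1.01) and nhr-56 (-0.91), beside nhr-31 (-1.13 ± 0.21), a regulator of vacuolar ATPase genes in the excretory cell. For nhr-31 the values were 7.40, 7.01 and 7.48 in M24, against 8.58, 8.37, 8.01 and 8.77 in R24, with no overlap. nhr-112 had a second probe set that also fell (adjusted p = 0.0224). nhr-88 had 4 probe sets that disagreed, 1 more with a fall (-1.11 ± 0.23) and the other 2 above 0 (0.46 and 0.70). The calls of nhr-232, nhr-112 and nhr-56 were lost without M24 replicate 1 (adjusted p = 0.0542, 0.0529 and 0.0667). That of nhr-31 was lost without M24 replicate 1 or R24 replicate 2 (up to 0.0679), that of nhr-88 without M24 replicate 1 or 2 or R24 replicate 2 or 4 (up to 0.0990), and that of nhr-84 was kept only without M24 replicate 2 (up to 0.156 without the others). Centring ended the call of nhr-84 (0.0575), and quantile normalization (0.0813) or the mean of its probe sets (0.216) that of nhr-88.

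The single rise at 24 hr was that of nhr-290, at the edge of both thresholds. It gave 4.73, 5.08 and 5.36 in M24, against 4.43, 4.43, 4.29 and 3.95 in R24 (0.78 ± 0.19, adjusted p = 0.0470). The call was lost without any 1 of the 7 arrays (adjusted p 0.0574 to 0.107). The scan days at 24 hr each held 1 group only, with R24 replicates 1 to 3 on the same day and no record for R24 replicate 4. With scan day as a random block (R24 replicate 4 given a day of its own, within-day correlation 0.571) 4 of the 13 calls at 24 hr were kept, those of nhr-43, nhr-11, nhr-102 and nhr-232.

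The question whether muscle enrichment changed between 0 and 24 hr was tested as the difference of the 2 log2 fold changes over all 13 arrays. All arrays at 0 hr were of the same chip lot, and those at 24 hr with a record were of another. Time, culture and chip lot therefore cannot be told apart in this difference. It was called for 6 nhr genes (2.36%, against 1.99% of all genes), 4 upward (1.57%, against 1.04% of all genes) and 2 downward (0.787%, against 0.952%). Leaving out 1 array at a time gave 0 to 5 upward and 1 to 4 downward calls. The median difference was -0.002 over the family. The downward pair of calls was nhr-43 and nhr-69. The upward 4 were nhr-213 (2.03 ± 0.44, adjusted p = 0.0352), nhr-238 (2.00 ± 0.46, 0.0474), nhr-208 (1.55 ± 0.36, 0.0471) and nhr-55 (1.26 ± 0.26, 0.0280). All 4 had fallen at 0 hr and were not called at 24 hr.

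nhr-238 and nhr-208 fell at 0 hr and had positive but uncalled values at 24 hr. nhr-238 gave 4.25, 4.24 and 4.01 in M0, against 5.85, 4.52 and 5.50 in R0 (-1.12 ± 0.31, adjusted p = 0.0471). In M24 it gave 5.02, 5.90 and 5.02, against 4.74, 4.44, 3.91 and 4.63 in R24. Muscle was below the reference on all arrays at 0 hr and above it on all arrays at 24 hr, although the second difference was not called (0.88 ± 0.29, adjusted p = 0.0966). Its call at 0 hr was kept only without R0 replicate 2 when 1 array was left out (adjusted p up to 0.156 without the others) and lost with quantile normalization (0.0627) or centring (0.0733). nhr-208 gave 6.02, 5.94 and 6.06 in M0, against 7.26, 7.08 and 6.82 in R0 (-1.05 ± 0.18, adjusted p = 0.00469). In M24 it gave 4.88, 5.19 and 6.14, against 5.02, 4.68, 5.05 and 4.85 in R24, with overlap and M24 replicate 3 far above the rest (0.50 ± 0.29, adjusted p = 0.281).

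The calls of the difference other than nhr-43 were close to the threshold. Leaving out 1 array at a time, nhr-213 kept the call only without R24 replicate 1, M24 replicate 1 or M24 replicate 3 (adjusted p up to 0.0928 without the others) and nhr-238 only without R0 replicate 2, R24 replicate 1 or M24 replicate 3 (up to 0.128). nhr-208 kept it only without M24 replicate 1 or 3 (up to 0.114), and nhr-55 without R0 replicate 3, M0 replicate 1, R24 replicate 1 or M24 replicate 2 or 3 (up to 0.0730). With the replicate number as a block, the 4 upward calls and that of nhr-69 were lost (adjusted p 0.0630 to 0.113), and with centring those of nhr-213 and nhr-238 were lost (0.0600 and 0.0813), the second also with quantile normalization (0.0687). When 1 array was left out the size of the difference stayed within 1.74 to 2.24 for nhr-213, 1.71 to 2.39 for nhr-238, 1.18 to 1.81 for nhr-208 and 1.15 to 1.46 for nhr-55.

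The genomic position of the members was not part of their selection. Of the 254 genes, 164 (64.6%) lie on chromosome V, which holds 25.2% of all genes measured, 28 lie on IV, 23 on X, 18 on I, 13 on II and 8 on III. Of the 30 nhr genes called in any comparison, 20 lie on V. By RefSeq gene order, 144 nhr genes stand in 47 runs of 2 or more adjacent nhr genes, the longest of 8, and 121 of these were measured. Such neighbours often arose by duplication, and whether their probes share signal was not tested. Of the 30 called genes, 16 lie in such runs, against 121 of the 254 members. The 16 are spread over 12 runs, and 4 runs held 2 called genes each.

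In those 4 pairs both genes were called in the same comparison and both were lower in muscle there. The genes that rose at either time (nhr-69, nhr-13, nhr-101 and nhr-290) all lie outside runs. Any pair called at 0 or 24 hr within a run was therefore bound to share its direction, and shared control of neighbours was not tested. nhr-50 and nhr-63 fell at both times, as given above. nhr-102 and nhr-84 fell at 24 hr (-1.69 and -1.28), and at 0 hr both were uncalled (-0.70 and -0.50). nhr-206 and nhr-208 fell at 0 hr (-1.34 and -1.05) and measured -0.46 and 0.50 at 24 hr, both uncalled. The next gene of their run of 7, nhr-207, had -0.82 at 0 hr (adjusted p = 0.159), whereas nhr-209 beside it had 0.42. In a run of 6, nhr-44 (-1.31) and nhr-194 (-1.35, annotated as a pseudogene) fell at 0 hr, and nhr-219, which lies between them, measured -0.03. When 1 array was left out, the call of nhr-44 was kept only without the second replicate of either group (adjusted p 0.0505 to 0.0656 without the others).

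The neighbour of nhr-238 followed the same course without being called. nhr-237 gave 9.72, 6.82 and 9.60 in M0, against 10.43, 9.86 and 10.23 in R0 (-1.45 ± 0.66, adjusted p = 0.214). At 24 hr it gave 9.39, 9.85 and 9.09 in M24, against 8.94, 8.49, 8.35 and 8.62 in R24 (0.84 ± 0.22, adjusted p = 0.0544). Muscle lay below all reference arrays at 0 hr and above them at 24 hr, with M0 replicate 2 far below the other muscle arrays, and the difference of enrichment was 2.30 ± 0.79 (adjusted p = 0.203). nhr-237 is outside the naming rule and is named here as the neighbour of nhr-238, after its values were seen. Within the same run of 5, the other measured genes did not follow this course and were uncalled. nhr-179 had 0.01 at 0 hr and 0.52 at 24 hr, and nhr-110 had 0.07 and 0.13. In the run of 6 that holds nhr-55, the other 5 genes lay between -0.11 and 0.35 at 0 hr and none was called.

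**Figure D5:**
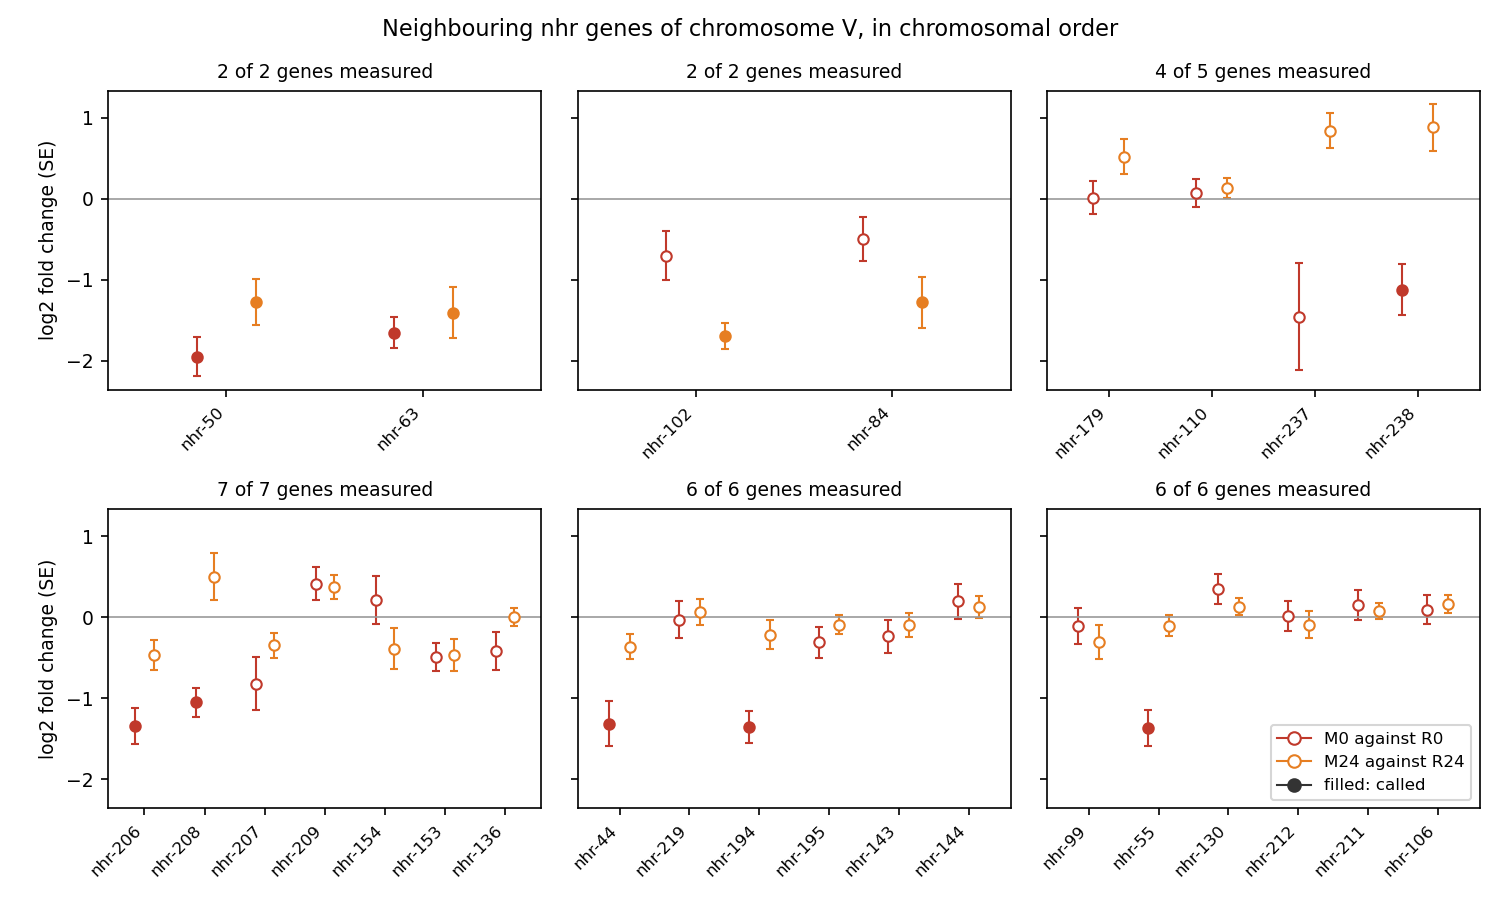
Log2 fold change with its SE (vertical axis) of the measured nhr genes in 6 runs of adjacent nhr genes on chromosome V, in chromosomal order, in M0 against R0 (red) and M24 against R24 (orange), with filled points for called genes. nhr-237 and nhr-238 lie below 0 at 0 hr and above 0 at 24 hr, whereas nhr-179 and nhr-110 of the same run lie near or above 0 at both times. In the run of nhr-55 that gene alone is called.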

How the data were processed

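Per the labels, 100 ng of total RNA per sample was amplified in 2 rounds, labelled and hybridised to 13 Affymetrix C. elegans arrays. The deposited values are probe-set intensity on a linear scale, which the authors made by RMA (background correction, quantile normalization and probe summary, no version given in the sources used here). Deposited scanner settings (other text, not measurements) gave the scan day of 12 arrays. Exactly shared values numbered 563 to 1410 in array pairs at 24 hr, 55 to 344 at 0 hr and 0 or 1 across times, so the 2 times were taken as separate RMA runs and no level was compared across them.

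Intensities were log2-transformed with no pseudocount or filter. M0 was tested against R0, M24 against R24, and the difference of these over all 13 arrays, with limma 3.58.1 (R 4.3.3; lmFit, eBayes, two-sided) and Benjamini-Hochberg adjustment over 22548 probe sets. The number of arrays limits precision. The scripts were tested on simulated data. Of the 22548 probe sets, 887 name several genes (14 of them an nhr gene, including that of nhr-62, whose symbol is repeated) and 895 none, and both kinds were left out. Gene names, chromosomes and neighbours came from the platform annotation and RefSeq (WBcel235).

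The members and gene lists were chosen with earlier results of these data known. Named are the called nhr genes (the 15 largest changes where more were called in a direction), 11 conserved receptors, 7 receptors of muscle and fat metabolism (nhr-64 and nhr-69 as HNF4 relatives), 5 other nuclear receptors, called members of the cofactor and fat gene lists, myo-3 and hlh-1. Alternatives were quantile normalization, centring, a brightness filter, the mean of a gene's probe sets, no fold minimum, 1 fit for all arrays, scan day or replicate number as a block, and each array left out. At 0 hr the deviations of arrays with the same replicate number had correlations of 0.22, 0.32 and 0.15. M0 replicate 3 with R0 replicate 1 had 0.27 and M0 replicate 2 with R0 replicate 3 had 0.10, and the other unlike pairs were below 0. At 24 hr same-number pairs had 0.21, -0.04 and 0.38, and unlike pairs reached 0.26. A pairing by number is thus not clear from the data, and the labels do not state one. Figures were drawn with matplotlib 3.10.9.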

Additional observations from a re-analysis of the deposited data

Results flagged for a closer look

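In R24, the group with 4 arrays, 1 array stood apart from the other 3 for 10 of 43 named nhr genes and for 34 of all members, by the gap to its nearest neighbour as a share of the whole range of the group (Dixon's criterion for 4 values). Chance alone puts about 1 in 20 independent groups past it, but genes read on the same arrays are not independent. The share over all genes was not counted, so these counts cannot be read as a trait of nhr genes. R24 replicate 3 was the low array for nhr-66 (share 0.947, 6.91 against 8.48 to 8.57 in log2 intensity), nhr-40 (0.946), nhr-13 (0.917), nhr-63 (0.916), nhr-49 (0.896), nhr-45 (0.880) and nhr-43 (0.843), and the high array for nhr-48 (0.856). R24 replicate 4 was high for nhr-8 (0.904), and R24 replicate 1 was low for nhr-41 (0.857).

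Muscle enrichment differed between the times for 6 genes by the test of the difference itself (24 hr less 0 hr, log2). The differences were -3.12 for nhr-43 and -1.16 for nhr-69, and 2.03 for nhr-213, 2.00 for nhr-238, 1.55 for nhr-208 and 1.26 for nhr-55. Of these, nhr-43 alone kept its call under all alternatives tried.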

How the results depend on the processing

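No named gene past a threshold changed direction under any alternative. At 0 hr 8 of the 18 named nhr calls were kept under each alternative run for them (nhr-69, nhr-194 and nhr-206 were too dim for the brightness filter), at 24 hr 3 of 13 and for the difference of enrichment 1 of 6. With the brighter probe sets only, 9 members were called at 0 hr (94 tested) and 3 for the difference (92 tested), since fewer genes were tested, and the median at 24 hr was -0.051. Scan day as a fixed block at 0 hr gave a median of 0.15. That fit rests on M0 replicate 1 with R0 replicate 1 and M0 replicate 2 with R0 replicate 3, the arrays that shared a scan day. Scan day as a random block gave 4 calls at 24 hr. With the replicate number as a block, 3 members were called at 24 hr and 1 for the difference (R24 replicate 4, which has no partner, adds nothing to that fit), and 21 at 0 hr, all 20 of the main calls among them. The causes were not tested. Leaving out each array in turn, 13 to 21 members were called at 0 hr, 4 to 18 at 24 hr and 1 to 7 for the difference, and the medians ranged over 0.02 to 0.12, 0.04 to 0.13 and -0.07 to 0.04. The count at 0 hr was 13 without R0 replicate 1 or 3. At 24 hr it was 4 without M24 replicate 1, 6 without R24 replicate 2 and 8 without R24 replicate 4. For the difference it was 1 without R0 replicate 1, M0 replicate 3 or R24 replicate 2 or 4, 2 without R0 replicate 3 or M0 replicate 1, and 3 without R0 replicate 2, R24 replicate 3 or M24 replicate 1. Beside these, centring each array on its median left 1 rise and 14 falls at 0 hr, and the median of all probe sets there was 0.10. With 3 or 4 arrays a group, the number of arrays limits what could be detected.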
